A study of Mus musculus with 2 samples.

Results

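The genes described here are 10 that process, hydroxylate or crosslink collagen, chosen by name from the 27998 genes in the files. They are the procollagen proteinase Bmp1, the procollagen C-proteinase enhancers Pcolce and Pcolce2, the lysyl hydroxylases Plod1, Plod2 and Plod3, and the lysyl oxidases Lox, Loxl1, Loxl2 and Loxl3. All 10 were found in both libraries. Their UMIs (unique molecular identifiers, each standing for a captured RNA molecule) were summed per cell class and tissue and scaled to counts per 1000000 UMIs (CPM), and within fibro-adipogenic progenitors (FAPs), the resident fibroblasts of skeletal muscle. FAPs were taken as barcodes with at least 1 UMI of Pdgfra and at least 50 of Dcn, within limits on depth and on mitochondrial UMIs.

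Single-cell RNA was measured in mononuclear cells from the quadriceps, a limb muscle, and from the diaphragm, the main breathing muscle, of C57BL/6J mice, with no treatment named in the labels. Animals numbered 10 over the experiment, counted as 5 each in the methods, and each tissue gave 1 library. Tissues were digested with collagenase B and dispase II, and muscle fibres, which have many nuclei, were outside what the method captures. The labels give no age or sex, and with 1 library per tissue no difference between tissues had a replicate check, so the intervals below cover counting error only and no test was made.

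Fibrillar collagen is secreted with propeptides at its ends, and fibrils form once these are cut off. Bmp1 cuts the C-terminal propeptide, and Pcolce and Pcolce2 bind procollagen and speed that cut. Inside the cell the Plod enzymes hydroxylate lysines of the chain, and outside it the lysyl oxidases oxidise lysines and hydroxylysines, which then react into the covalent links that give collagen and elastin fibres their strength. In muscle these links set much of the stiffness of the connective tissue around the fibres.

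The gate held 1769 of 5159 barcodes in quadriceps, with 20821939 UMIs and a median of 11217 per cell, and 1567 of 2499 in diaphragm, with 21146006 UMIs and a median of 13123. All 10 FAP markers were detected in both tissues, which for Pdgfra and Dcn was set by the gate itself. The stem cell antigens Cd34 and Ly6a stood at 1297 and 2632 CPM in quadriceps FAPs and at 1246 and 1358 in diaphragm FAPs. The tissues also differed in other ways inside the gate. The immediate early gene Fos stood at 273 CPM in quadriceps FAPs and 2903 in diaphragm FAPs, the 8 tenocyte markers summed to 423 and 1514, and the 10 muscle fibre genes to 12.2 and 33.4, with no marker of either list at 0 in either tissue. The part of these differences in the results below was not tested, except where values without the cells concerned are given. Of the gate cells, 1707 in quadriceps and 331 in diaphragm fell in clusters that could be named FAP-like, while 1230 diaphragm gate cells fell in fibroblast clusters whose leading genes included mesothelial or tenocyte markers, so FAPs are named here by the gate.

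Sequence context is shown for the enhancers Pcolce and Pcolce2, because they leaned to opposite sides of the FAPs, as given later. Pcolce lies on chromosome 5 from 137605103 to 137613784 on the minus strand, and Pcolce2 on chromosome 9 from 95637601 to 95698096 on the plus strand (GRCm38, GENCODE M21). The annotated body of Pcolce overlaps that of Fbxo24 on the same strand, so reads in the shared stretch cannot be assigned by position alone, and Fbxo24 itself held 76 UMIs in quadriceps FAPs and 48 in diaphragm FAPs. RefSeq promoter windows, from 250 bases before to 50 bases after a RefSeq start on GRCm38.p6, were on hand for 4 of the 10 genes (Plod1, Plod3, Pcolce and Pcolce2). The window of Pcolce lies inside the GENCODE gene body, downstream of its outermost start, while that of Pcolce2 spans the GENCODE start. The windows of the enhancers follow, 5′ to 3′, with matches to the GC box GGGCGG on either strand in capitals.
Pcolce, chr5:137611355-137611654, minus strand: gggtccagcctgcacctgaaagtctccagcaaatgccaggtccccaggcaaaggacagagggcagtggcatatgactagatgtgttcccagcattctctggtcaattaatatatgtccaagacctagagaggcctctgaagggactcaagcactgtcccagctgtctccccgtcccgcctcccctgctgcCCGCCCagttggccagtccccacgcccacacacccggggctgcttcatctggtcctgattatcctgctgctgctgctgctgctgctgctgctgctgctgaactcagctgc
Pcolce2, chr9:95637378-95637677, plus strand: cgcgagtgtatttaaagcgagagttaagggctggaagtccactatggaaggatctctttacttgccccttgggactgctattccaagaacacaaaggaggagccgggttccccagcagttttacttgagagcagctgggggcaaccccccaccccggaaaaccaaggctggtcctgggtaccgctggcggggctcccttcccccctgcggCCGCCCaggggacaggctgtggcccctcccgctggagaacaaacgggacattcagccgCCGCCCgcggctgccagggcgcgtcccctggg
The Pcolce window held 1 GC box and the Pcolce2 window 2, a motif found in 35.7% of 32851 promoter windows searched. Neither window held TATAAA (13.6% of windows), CCAAT (37.4%) or the AP-1 site TGACTCA (5.20%), searched on both strands. The windows were 59.3% and 63.7% G or C, and the Pcolce window ended in a run of repeated ctg triplets.

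Most of the 10 genes were highest in fibroblasts. In both tissues 9 of the 10 stood at least 2-fold higher in FAPs than in the pooled non-fibroblast classes that had a name. The remaining member, Loxl3, was below the floor of 50 CPM that a gene had to reach, at 48.4 in quadriceps FAPs and 49.3 in diaphragm FAPs, against 10.4 and 3.23 in the other classes. Over all genes, 21.3% of the 3226 tested were higher in FAPs in both tissues and 9.52% were lower. No member was lower. The median log2 difference of the 9 was 2.94 in quadriceps and 4.31 in diaphragm, against 0.26 and 0.23 over all genes tested. The other classes numbered 2113 cells in quadriceps, of which 1152 were smooth muscle-like, and 230 in diaphragm. Groups without a name were left out of this pool. Among them, 37 quadriceps cells led by Slpi, Upk3b and Msln held 1214 CPM of Pcolce and 215 of Bmp1, against 1390.5 and 262 in FAPs. The same cells had no UMI of Pcolce2 and 4.06 CPM of Lox. The smooth muscle-like cells of quadriceps held 17688128 UMIs and the next class, Schwann cell-like, 1163907, so the pooled level there is mostly that of smooth muscle. Single classes could differ from the pool, as with Plod1 at 105% of its FAP level in the Schwann cell-like cells. In diaphragm the other classes held only 12 UMIs of Pcolce2, 13 of Loxl2 and 13 of Plod2, so folds there are imprecise.

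Pcolce2 was among the most fibroblast-bound, at 915 CPM in quadriceps FAPs against 23.9 in the other classes, and at 449 against 7.76 in diaphragm, which is 36.8-fold and 51.4-fold. Loxl2 stood at 279 against 10.3 and at 201 against 8.41, or 24.7-fold and 21.4-fold. The difference was smallest for the lysyl hydroxylases. Plod1 was 2.06-fold higher in FAPs of quadriceps and 3.20-fold in diaphragm, Plod3 2.60-fold and 4.51-fold, and Plod2 2.72-fold and 9.29-fold. These enzymes act in the endoplasmic reticulum, before the chains are secreted. Without the smooth muscle-like cells, chosen after seeing the data, the quadriceps log2 difference of Plod3 was 0.78 in place of 1.38, under 2-fold, and 8 members stood past it. In the class survey with the 5% limit on mitochondrial UMIs it was 0.27. The quadriceps value of Plod1, 1.04 on the log2 scale, also fell short of 2-fold under 3 alternatives, at 0.87 over UMIs outside mitochondrial genes, 0.88 with TMM scaling and 0.90 with a pseudocount of 10 CPM.

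The rest of the pathway, in lists chosen with results of these data known, lay mostly with the members. Higher in FAPs of both tissues were 6 of 6 fibrillar collagens above the floor, 7 of 7 prolyl hydroxylation genes, 5 of 6 folding and glycosylation genes, 1 of 1 other propeptide proteinase (Adamts2, which cuts the N-terminal propeptide) and 6 of 8 lysyl oxidase partners and elastin assembly genes. Eln fell short in quadriceps, at 261 CPM in FAPs and 208 in the other classes, as did Emilin1, at 67.0 and 72.2. Lower in FAPs were 1 folding gene, the endoplasmic reticulum cation channel Tmem38b, and the 1 other crosslinking gene above the floor, the transglutaminase Tgm2.

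Free RNA from broken FAPs can give a few UMIs in any cell, so the members were set beside 4 secreted FAP products (Dcn, Lum, Col1a1 and Col3a1) in the same classes. In the B cell-like cells of quadriceps these 4 stood at 2.95% to 4.19% of their FAP level. Pcolce stood at 5.19% there, Pcolce2 at 3.25%, Lox at 3.25% and Loxl2 at 1.52%, which is about the level of the 4 products and was read as background. Plod3 in the macrophage- or monocyte-like cells was far from that level, at 145% of its FAP level where the 4 products reached at most 2.25%. In the endothelial-like cells Plod3 was at 197%, Plod1 at 159% and Lox at 70.1% of the FAP level, where the 4 products reached at most 1.77%. These 58 cells held 185716 UMIs in all, so each of their values rests on few molecules.

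By class in quadriceps, the tenocyte-like cells had the highest level of Lox. These 104 cells outside the gate, named from markers of tendon cells such as Tnmd and Scx, had 1525 CPM of Lox, with a counting interval of 1442 to 1612, against 131 in FAPs, which is 11.7-fold. Other members were also highest in these cells. Loxl3 stood at 169 against 48.4 in FAPs (3.50-fold), Plod2, the hydroxylase of the telopeptide lysines, at 183 against 60.6 (3.01-fold), and Loxl2 at 381 against 279 (1.37-fold). Lower levels in the tenocyte-like cells were seen for 4 members. Loxl1, which acts in elastic fibres, stood at 211 in the tenocyte-like cells against 442 in FAPs, Bmp1 at 105 against 262, and Pcolce2 at 761 against 915. Plod3 stood at 58.8 against 59.98, with overlapping intervals.

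**Figure D1:**
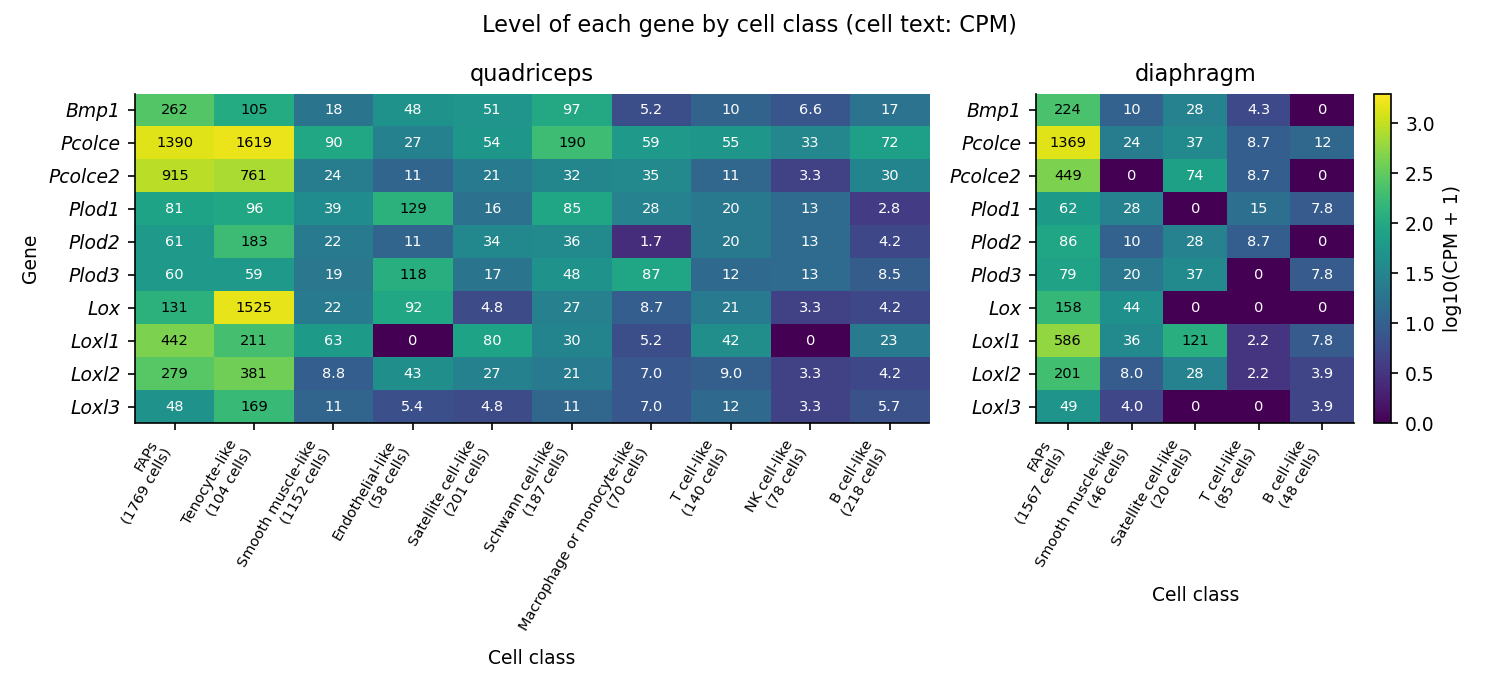
CPM of each gene (rows) in FAPs and in each named class of at least 20 cells (columns, with the number of cells) for quadriceps and diaphragm, coloured on a log10 scale with the value printed in each cell. Lox reached 1525 in the quadriceps tenocyte-like cells against 131 in FAPs, while in diaphragm FAPs were the highest column for all 10 genes. Groups without a name are not shown, and some of those in diaphragm stood higher.

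FAPs were the highest class in quadriceps for Loxl1, Pcolce2 and Bmp1, the tenocyte-like cells for Lox, Loxl2, Loxl3, Plod2 and Pcolce, and the endothelial-like cells for Plod1 and Plod3. The last order rests on few molecules. The 58 endothelial-like cells had a median of 2384.5 UMIs and gave 24 UMIs of Plod1, or 129 CPM with an interval of 82.8 to 192, which overlaps the 77.4 to 85.2 of FAPs. Their 22 UMIs of Plod3 gave 118 CPM, with an interval of 74.2 to 179 that lies above the 56.7 to 63.4 of FAPs. In diaphragm the named classes of at least 20 cells were FAPs, smooth muscle-like, satellite cell-like, T cell-like and B cell-like cells. Among these FAPs were highest for all 10 genes. Groups outside the gate and without a name were left out of this order, and some stood higher. Cells led by Slit2, C1qtnf3 and Thbs4 held 394 CPM of Lox against 158 in FAPs. Those led by Col6a5, Sfrp1 and Serpina3n held 1888 of Pcolce against 1369. Those led by Gm12840, Has1 and Tnfaip6 held 675 of Pcolce2 against 449. Each of these groups was below FAPs for other members. Lox was at 158 CPM in diaphragm FAPs and at 44.2 in the 46 smooth muscle-like cells, and had no UMI in the satellite cell-like, T cell-like and B cell-like cells, which allows up to 27.8, 6.49 and 11.8 CPM. Loxl1 was next highest in the 20 satellite cell-like cells of diaphragm, the muscle stem cells, at 121 from 13 UMIs. No tenocyte-like class of that size was found in diaphragm, so its levels could not be set beside those of quadriceps.

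Over the 15 class and tissue sums of at least 20 cells, the genes whose levels tracked each member most closely were looked up among 6960 genes, by Pearson's r of log2 levels, as a description. Pcolce was closest to Dcn (r = 0.97), Col1a2 (0.97) and Gsn (0.96), and Loxl3 to Col1a1 (0.94). Pcolce2 was closest to Mmp2 (0.92), Svep1 (0.92) and Clec3b (0.91). Lox was closest to Fbln7 (0.94) and Adam33 (0.92), Loxl1 to the collagen receptor Ddr2 (0.94), and Bmp1 to Mxra7 (0.96) and Tnxb (0.95). Loxl2 was closest to Kdelr2 (0.96), Plod1 to Tmem43 (0.93), Plod2 to Wbp5 (0.94), with the prolyl hydroxylase complex member P3h4 close to it too (0.92), and Plod3 to Fcgrt (0.89). The points share 2 libraries and their free RNA. Dcn is also a gate gene, so its contrast between FAPs and the other classes is partly set by the gate.

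Within FAPs the tissues had similar levels for most members, and 1 of the 9 above the floor, Pcolce2, differed by at least 2-fold. Pcolce2 stood at 915 CPM in quadriceps FAPs, with an interval of 902 to 928, and at 449 in diaphragm FAPs, with an interval of 440 to 458. That is 2.04-fold higher in quadriceps, a log2 difference of −1.03. Over 3309 genes tested, 2.78% were at least 2-fold higher in quadriceps and 3.72% in diaphragm, and no member was called in diaphragm. The call lies at the threshold. The median gene tested had a log2 difference of −0.10, and relative to it Pcolce2 stood at −0.92. With TMM scaling it stood at −0.91, in FAPs with no Tnmd UMI at −0.95 and in FAPs with at most 2 Fos UMIs at −0.91, each just short of 2-fold. In gate cells of FAP-like clusters only it stood at −1.85. That setting kept 1707 quadriceps cells from several clusters. The 331 diaphragm cells it kept were all from the cluster led by Kcnk2, Ces1d and Dio2, so it compares unlike mixes of FAPs. Pcolce2 was lower in diaphragm under each of the 16 alternatives.

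The paralogue Pcolce showed no such difference, at 1390.5 CPM in quadriceps FAPs and 1369 in diaphragm FAPs. The proteinase Bmp1 whose work both assist stood at 262 and 224. Among the lysyl oxidases, Loxl1 stood at 442 in quadriceps and 586 in diaphragm (log2 0.41), Lox at 131 and 158 (0.28), and Loxl2 at 279 and 201 (−0.47). Plod2 stood at 60.6 and 86.4 (0.51), Plod3 at 59.98 and 79.4 (0.40), and Plod1 at 81.2 and 62.3 (−0.38). The counting intervals of these 6 genes did not overlap between tissues, yet the differences were all under 1.5-fold, and no replicate shows how far libraries of 1 tissue differ. The share of all genes with such intervals was not computed. In gate cells of FAP-like clusters only, whose mix of FAPs differed between tissues as given above, Plod1 turned to 0.26 and Lox to −0.86.

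**Figure D2:**
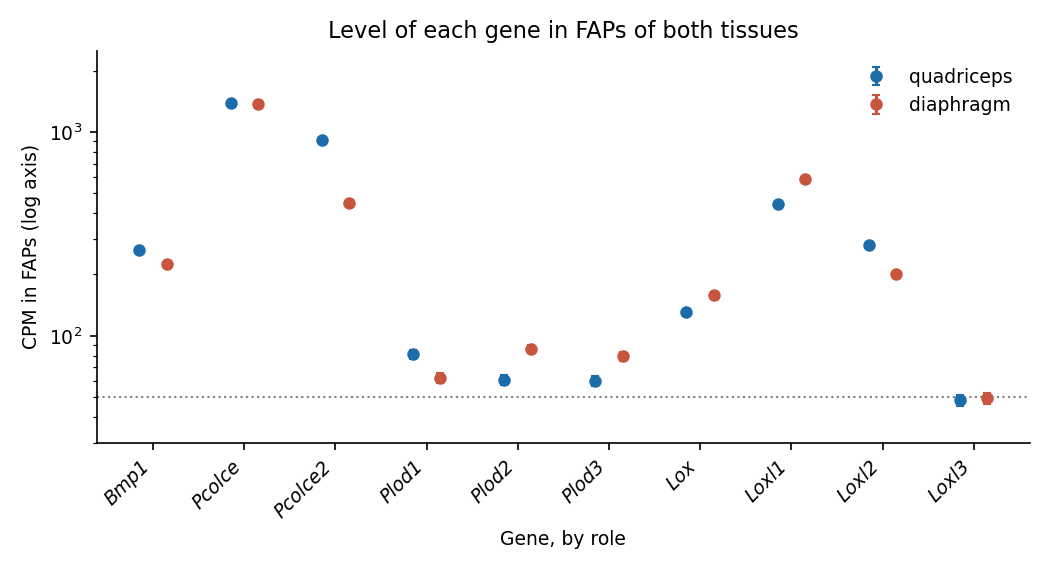
CPM in FAPs (log axis) for each gene in quadriceps (1769 cells) and diaphragm (1567 cells), with exact Poisson 95% intervals for counting error and a dotted line at the floor of 50. Pcolce2 is the gene with the widest gap, 915 against 449, and Pcolce is level.

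The other genes of the pathway differed little between tissues. None of the 7 prolyl hydroxylation genes, none of the 5 folding and glycosylation genes and not the 1 other propeptide proteinase above the floor reached 2-fold, and no other crosslinking gene was above the floor. Of 6 fibrillar collagen genes above the floor 1 did, Col5a3, at 514 CPM in quadriceps FAPs and 248 in diaphragm FAPs. Of 8 genes of lysyl oxidase partners and elastin assembly, 2 were higher in diaphragm. Elastin (Eln), a substrate of Lox and Loxl1, stood at 261 and 617, and Fbln1 at 263 and 1049. Fibronectin (Fn1), which binds the proteinase Bmp1 and Lox in the matrix, lay just short of the threshold, at 1987 in quadriceps and 1011 in diaphragm.

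The share of FAPs with a UMI, after each cell was thinned to 1000 UMIs, pointed the same way as the levels for the 6 genes whose intervals did not overlap between tissues (Lox, Loxl1, Loxl2, Plod2, Pcolce2 and Bmp1). This was counted for the members only, so how common it is over all genes is not known. Pcolce2 was seen in 49.7% of quadriceps FAPs (exact interval 47.3% to 52.0%) and 31.3% of diaphragm FAPs (29.0% to 33.7%). Loxl1 was seen in 31.5% and 41.5%, Lox in 7.35% and 12.4%, and Pcolce in 69.3% and 69.7%. In the quadriceps B cell-like cells, given for comparison, the thinned share was 1.38% for Pcolce2 and 4.13% for Pcolce, at a median depth before thinning of 3002 UMIs.

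FAPs were divided into cells high in Fbn1 and its companions, cells high in Lum and its companions and cells on neither side, the first 2 here called FBN1+ and LUM+ after the side whose naming genes were higher in a subcluster. The members and the pathway genes were kept out of the clustering. In quadriceps 591 FAPs were FBN1+ and 583 LUM+, and in diaphragm 226 and 588, with 595 and 753 on neither side. Pcolce2 was FBN1+ in both tissues. It stood at 1470.0 CPM in FBN1+ and 433 in LUM+ FAPs of quadriceps, and at 816 and 278 in diaphragm, or 3.39-fold and 2.93-fold. This was the 1 member called FBN1+, where 2.75% of 3060 genes were at least 2-fold higher in FBN1+ cells of both tissues. It stayed at least 2-fold higher in FBN1+ cells under each of the 18 alternatives, over a log2 range of 1.31 to 1.98 in quadriceps and 1.19 to 1.99 in diaphragm.

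Pcolce leaned the other way, at 1056 in FBN1+ and 1621 in LUM+ FAPs of quadriceps and at 1181 and 1752 in diaphragm. The enhancers therefore leaned to opposite sides, with log2 values of 1.76 and −0.62 in quadriceps and 1.55 and −0.57 in diaphragm. Pcolce stayed under 2-fold and was not called on either side. Over single FAPs thinned to 5000 UMIs, Pcolce2 had r = 0.46 with Fbn1 and −0.55 with Lum in quadriceps (1722 cells), and 0.34 and −0.29 in diaphragm (1558 cells). Pcolce and Pcolce2 had r = −0.16 in each tissue. These values describe cells of 1 library each.

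Lox was the 1 member called LUM+, where 2.65% of genes were at least 2-fold higher in LUM+ cells of both tissues. Most of its UMIs lay on neither side. Of 2720 Lox UMIs in quadriceps FAPs, 279 lay in FBN1+ and 866 in LUM+ cells. Of 3346 in diaphragm FAPs, 154 and 696 did. The Pappa2-led and Tnmd-led subclusters described below, with the highest Lox levels, were on neither side. Between the named sides, Lox stood at 37.1 in FBN1+ and 133 in LUM+ FAPs of quadriceps (log2 −1.81). In diaphragm it stood at 45.6 and 92.3 (−1.001), which sits on the threshold. In quadriceps its log2 value ranged from −3.19 to −1.10 over the 18 alternatives. In diaphragm it ranged from −1.93 to 0.51 and turned sign under 4 of them, so its side in that tissue depended on the setting. Plod1 was LUM+ in quadriceps, at 42.6 against 121 (log2 −1.48), and leaned so in diaphragm, at 54.2 against 81.2 (−0.57). Bmp1 leaned to FBN1+, at 387 against 206 in quadriceps and 313 against 193 in diaphragm, and so did Loxl1, at 629 against 387 and 645 against 517. Plod3 was level, with log2 values of −0.08 and −0.04.

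**Figure D3:**
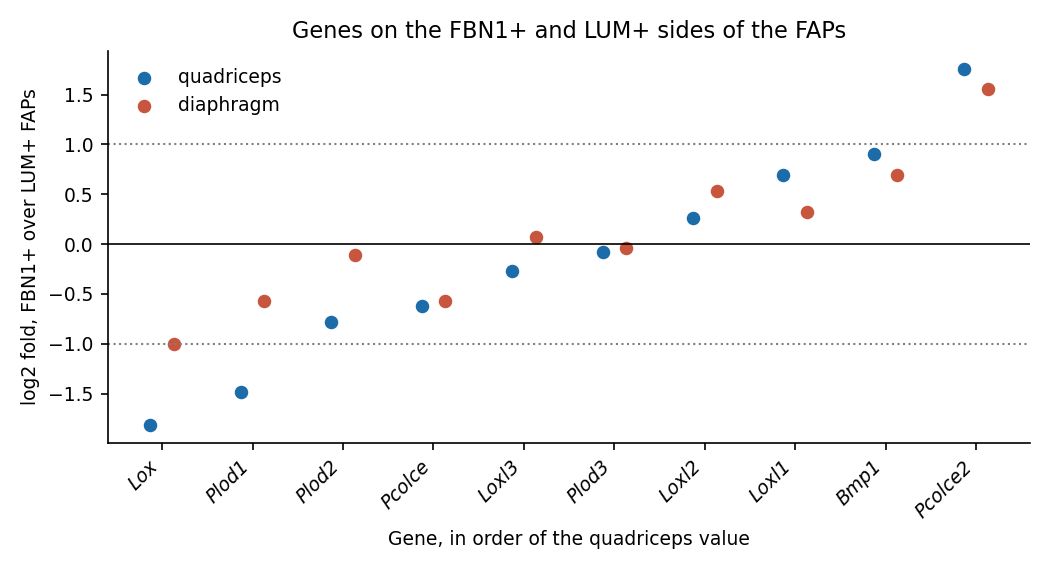
log2 fold of FBN1+ over LUM+ FAPs for each gene in quadriceps and diaphragm, with dotted lines at 2-fold. Pcolce2 lies above 2-fold in both tissues (1.76 and 1.55) and Lox below it (−1.81 and −1.001), with Pcolce and Plod1 below 0 in both tissues.

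Of the rest of the pathway, Fn1 was called FBN1+, at log2 values of 1.77 and 1.75, and no gene was called LUM+ in both tissues. The 7 prolyl hydroxylation genes above the floor all lay below 0 in both tissues, with medians of −0.29 in quadriceps and −0.11 in diaphragm, beside −0.01 and 0.07 over all genes tested. The 6 fibrillar collagens had medians of −0.32 and 0.07.

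Among subclusters of FAPs, Lox varied far more than any other crosslinking gene. In quadriceps it ran from 7.28 CPM in the subcluster led by Stmn4 and Cd55 to 1979.9 in a subcluster of 46 cells led by Pappa2 and Lcn2, and stood at 447 in one of 29 cells led by Fmod, Thbs4 and Tnmd. The 46 cells made up 2.60% of quadriceps FAPs and held 48.2% of their Lox UMIs. Every one of them had a Lox UMI, and 65.2% had a UMI of the tendon gene Tnmd. In diaphragm, where no FAP fell in the Pappa2-led subcluster, the 331 cells of the Tnmd-led subcluster stood at 345, made up 21.1% of FAPs and held 45.9% of Lox UMIs. The lowest diaphragm value was 28.8, in the subcluster led by Clu and Hmcn1.

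The summed tenocyte markers were high in these subclusters too. For the Tnmd-led cells this follows from how they are named, because Fmod, Thbs4 and Tnmd are among the markers. The sum was 2618 CPM in the Pappa2-led cells and 9129 in the Tnmd-led cells of quadriceps, 20.2 in the Stmn4-led cells there, and 3733 in the Tnmd-led cells of diaphragm. The marker Scx alone stood at 18.1 CPM in the Pappa2-led and 118 in the Tnmd-led cells of quadriceps. In diaphragm it stood at 0.67 in the Tnmd-led and 0.997 in the Dio2-led cells. The order of the markers and of Lox differed over the other subclusters of diaphragm. The Dio2-led cells had 1958 CPM of the markers and 70.0 of Lox, the Clu-led cells 1015 and 28.8, and the Dmkn-led cells 50.2 and 183. Of the 46 and 29 quadriceps cells, 8 and 6 had been placed in the tenocyte-like cluster of the whole library. After thinning to 5000 UMIs, quadriceps FAPs with a Tnmd UMI (89 cells) had 906 CPM of Lox and those without (1633 cells) 75.6. In diaphragm the values were 308 (207 cells) and 130 (1351 cells). Lox was uneven among cells even so. The 10% of quadriceps FAPs with the most Lox held 82.4% of its UMIs and 1271 of 1769 cells had none, whereas in diaphragm the top 10% held 48.4% and 688 of 1567 had none. For Pcolce the top 10% held 24.5% and 22.8%. At 5000 UMIs per cell the variance of Lox was 7.94 times its mean in quadriceps and 2.49 times in diaphragm.

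Pcolce2 was high in the FBN1+ subclusters of quadriceps, at 1417 in the Stmn4-led and 1508 in the Dmkn-led cells, and low in the LUM+ subcluster led by Dio2, at 363. A subcluster of 24 quadriceps cells led by Spp1, Tenm2 and Col26a1 had 1 UMI of Pcolce2 in all, or 3.89 CPM with an interval of 0.099 to 21.7. These cells, named LUM+, stood at 759 for Pcolce, its lowest value among the quadriceps subclusters, 38.9 for Loxl1 and 50.6 for Plod3. Plod2 peaked in the Tnmd-led cells of quadriceps, at 233, and reached 111 at most in diaphragm. Plod3 was nearly even, with the highest subcluster 1.28 times the lowest in quadriceps and 1.59 times in diaphragm.

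The comparison within FAP subclusters used 7 of them. Each of these held at least 20 cells in each tissue. Cells of the same subcluster could still differ between tissues. In the Tnmd-led cells the tenocyte markers summed to 9129 CPM in quadriceps and 3733 in diaphragm, and Scx stood at 118 and 0.67. Pcolce2 was higher in quadriceps in 7 of 7, by log2 differences of −1.32 to −0.18, with counting intervals clear of 0 in 6. Loxl2 was higher in quadriceps in 7 of 7 as well, from −1.32 to −0.28, all with intervals clear of 0, although its difference over all FAPs was −0.47. Loxl1 was higher in diaphragm in 6 of 7, with the Dmkn-led cells the exception (−0.41), and Plod3 in 6 of 7. Plod2 was higher in diaphragm in 6 of 7 and lower in the Tnmd-led cells (−1.20), at 233 in quadriceps and 101 in diaphragm. That quadriceps value came from 83 UMIs in 29 cells. The highest Plod2 count in a single quadriceps FAP was 41, in a subcluster not recorded here. Bmp1 and Pcolce were split between the directions. These counts were made for the members only, so the share of all genes that reach 7 of 7 is not known.

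Lox was higher in diaphragm in 4 of the 7 and lower in 3, each with an interval clear of 0. In the Ptx3- and Has1-led cells it stood at 35.8 in quadriceps and 180 in diaphragm (log2 2.30), and in the Stmn4-led cells at 7.28 and 30.3 (1.92). It was lower in the Apoe-led cells, at 230 and 139 (−0.73), and in the Dio2-led and Tnmd-led cells. Without the Pappa2-led and Tnmd-led cells, a choice made after seeing the data, FAPs held 63.2 CPM of Lox in quadriceps and 108 in diaphragm, a log2 difference of 0.77 in place of 0.28. In FAPs with at most 2 Fos UMIs the difference was −0.07. In gate cells of FAP-like clusters only, an unlike mix between tissues, it was −0.86. The tissue value of Lox thus turned sign under 2 of 16 alternatives. In 7 of 7 shared subclusters Fos stood higher in diaphragm, and its part in these values was not tested beyond that limit.

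**Figure D4:**
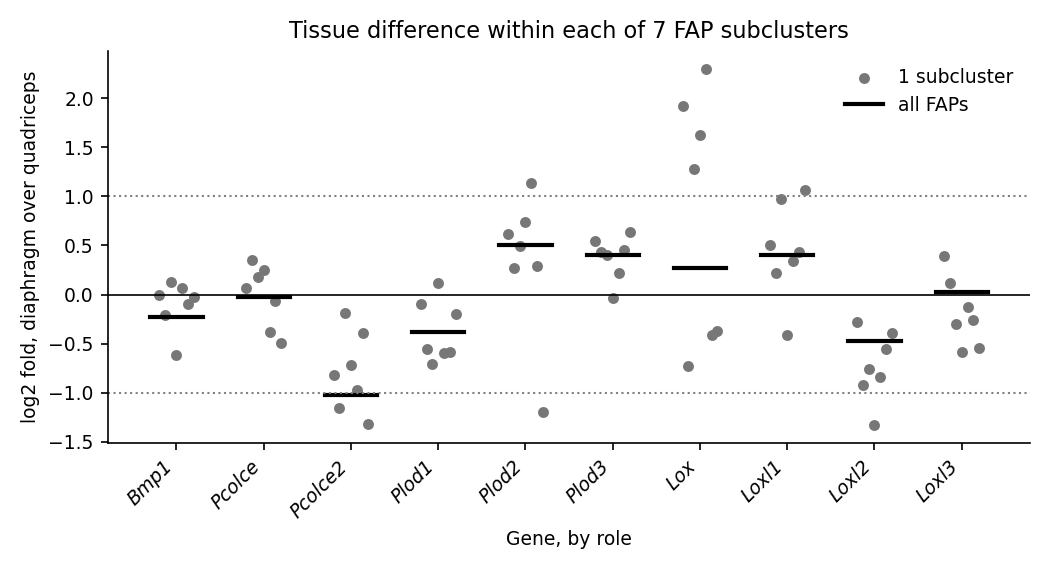
log2 fold of diaphragm over quadriceps for each gene within each of the 7 FAP subclusters of at least 20 cells in both tissues (grey points) and over all FAPs (black bars), with dotted lines at 2-fold. All 7 points of Pcolce2 and Loxl2 lie below 0, and those of Lox spread from −0.73 to 2.30.

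The members were only weakly related from cell to cell. Over the 45 pairs of members, r ran from −0.22 (Plod1 and Pcolce2) to 0.24 (Loxl1 and Pcolce2) in quadriceps, and its extremes in diaphragm were −0.16 and 0.18. Cells were thinned to 5000 UMIs, a depth at which many cells had 0 or 1 UMI. Lox had r = 0.32 with its substrate gene Eln in each tissue and 0.19 and 0.24 with Col1a1. Loxl1 had r = 0.14 with Eln in quadriceps and 0.28 in diaphragm, and 0.32 and 0.23 with Fbn1, the main protein of microfibrils.

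Few cells stood near the gate, with 10 quadriceps FAPs at 50 to 59 Dcn UMIs and 7 cells just outside at 40 to 49, and 3 and 1 in diaphragm. In the quadriceps cells just inside and just outside, Pcolce2 stood at 935 and 967 CPM, Loxl1 at 618 and 211, Lox at 50.1 and 0, and Plod1 at 0 and 90.6, from so few cells that a handful of UMIs sets each value.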

How the data were processed

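UMI counts were analysed from 2 droplet libraries of mononuclear cells, 1 from quadriceps and 1 from diaphragm. The authors deposited raw, unnormalised counts for each gene in each barcode, from Cell Ranger 3.0.0 on mm10 (GRCm38), and the submitters' notes also name Seurat. A single library per tissue pooled the animals' cells, so samples were grouped by tissue from their labels and no p-value was computed. The genes and pathway lists were chosen with earlier results of these data known.

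FAPs had at least 1000 UMIs, at most 5% mitochondrial UMIs (13 genes), totals below 65491 (quadriceps) or 31727 (diaphragm) UMIs, at least 1 Pdgfra and 50 Dcn UMIs. Counts were summed over cells and scaled to counts per 1000000 UMIs (CPM). Folds used a pseudocount of 1 CPM, and a call needed 2-fold and 50 CPM in the higher group. Levels are compared across cells for each gene, not between genes. Intervals are exact Poisson, conditional binomial for ratios and Clopper-Pearson for shares, at 95%, for counting error only, and a count of 0 allows up to 3 counts.

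Cells of both libraries within the UMI limits, with no mitochondrial limit, were scaled within library and clustered (scanpy 1.11.5, 2000 variable genes, 20 components, 20 neighbours, Leiden resolution 1) without the 53 members and pathway genes. FAP subclusters used 10 components and resolution 0.5. Classes were named from marker lists chosen with earlier results known, and the naming rule was set after seeing the clusters: a name needed 3 markers present and, for classes other than FAP, 3 raised at least 2-fold, with no other class ahead. Doublets were kept; a Scrublet-type caller, run as an alternative, marked 98 quadriceps and 4 diaphragm barcodes, 10 and 1 of them FAPs. The libraries shared 5 barcode sequences. Named genes are the members, the pathway genes, the 3 genes most like each member, the 3 leading genes of each cluster, and the gate, naming and check genes. The fold script was tested on simulated data. Alternatives changed the gates, limits, scaling, pseudocount, floor, clustering and sides. Gene positions are from GENCODE M21 and promoter windows from RefSeq, those on chromosome 18 left out.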

Additional observations from a re-analysis of the deposited data

Results flagged for a closer look

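With 1 library per tissue no sample can stand apart from replicates. What drew attention was a fold of FBN1+ over LUM+ FAPs that pointed one way in quadriceps and the opposite way in diaphragm, and the difference between tissues was not tested. Among the members this held for Loxl3, at log2 −0.27 in quadriceps and 0.072 in diaphragm. Among the collagen substrates it held for Col3a1 (−0.38 and 0.059), Col5a2 (−0.56 and 0.14) and Col5a3 (−1.13 and 0.087). It also held for the N-propeptide proteinase Adamts2 (0.42 and −0.15) and for the fibulins Fbln5 (−0.21 and 0.30) and Fbln2 (−0.25 and 0.62). The flag asked only for opposite signs and was not counted over all genes. In diaphragm the counting intervals of FBN1+ and LUM+ cells overlapped for Loxl3 (43.1 to 58.5 and 43.1 to 53.1 CPM) and Col5a3 (296 to 334 and 284 to 309), so their direction there is unclear. Those of Loxl3 overlapped in quadriceps too (38.2 to 47.7 and 46.5 to 57.7 CPM), so its direction is unclear in both tissues.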

How the results depend on the processing

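No paired analysis was possible because each tissue gave 1 library and the labels pair no samples. The count of members past 2-fold between tissues was 1 (Pcolce2), and 0 with a Pdgfra gate of 3 UMIs, TMM scaling, FAPs with no Tnmd UMI, FAPs with at most 2 Fos UMIs and, chosen after seeing the data, with centred folds or without the Pappa2- and Tnmd-led subclusters. The count between FBN1+ and LUM+ FAPs was 2 (Lox and Pcolce2), and 1 (Pcolce2) with no mitochondrial limit, Dcn gates of 20 or 100, a Pdgfra gate of 3, a UMI minimum of 5000, no upper UMI limit, a pseudocount of 10, Scrublet calls removed, no Tnmd UMI, at most 2 Fos UMIs, or sides cut from a score. At subcluster resolution 1.0 it was again 2, Pcolce2 and Bmp1. The diaphragm value of Lox turned to 0.28 at a Dcn gate of 20, 0.44 at 100, 0.20 with no upper limit and 0.51 with no Tnmd UMI; the cause was not tested, and each of these settings reclusters the FAPs. The count against other classes stayed between 8 and 10, and that of members highest in FAPs or tenocyte-like cells between 8 and 9. The count of shares clear of each other, made for the members only, was 6 at 1000 and 8 at 5000 UMIs per cell. Of 820 values of single members under an alternative, 565 stayed within the counting interval of the main value, 251 moved beyond it and 4 changed the sign of a called value. Depth limits the endothelial-like cells and the smaller diaphragm classes most.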

Other observations

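Some cells lay outside the named classes. A quadriceps group of 37 cells outside the gate, led by Slpi, Upk3b and Msln, held 1214 CPM of Pcolce and 215 of Bmp1 but no UMI of Pcolce2, which allows up to 12.2 CPM, and 4.06 CPM of Lox. In diaphragm, 185 cells outside the gate and led by Slit2, C1qtnf3 and Thbs4 held 394 CPM of Lox and 813 of Loxl1, and 54 cells led by Gm12840, Has1 and Tnfaip6 held 675 of Pcolce2.

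Of the wider pathway, 2 genes above the floor of 50 CPM lay opposite to the members. The trimeric cation channel Tmem38b stood at 13.9 CPM in quadriceps FAPs and 239 in the other classes, and at 20.1 and 83.5 in diaphragm. The transglutaminase Tgm2, which crosslinks proteins through glutamine, stood at 35.4 and 322 in quadriceps and at 22.2 and 99.0 in diaphragm. The prolyl hydroxylase P3h2, below the floor, stood at 1.73 and 24.9 in quadriceps and at 6.24 and 16.8 in diaphragm. Loxl4, a lysyl oxidase-like gene outside the set, was low, at 3.75 and 2.18 CPM in FAPs.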
